A study of Danio rerio with 3 samples.

Results

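Amino acids cross cell membranes through carrier proteins, and 5 carrier genes of the solute carrier families 7, 38 and 43 are described here in the zebrafish brain: slc7a3b, slc7a6, slc7a7, slc38a7 and slc43a1a. They were chosen by name out of 32057 genes in the deposited gene table, which holds 35 genes of these 3 families, and each symbol belonged to 1 gene identifier. The choice was made with their levels in the 3 libraries known, so the differences between libraries given below are descriptions. The study asked how zinc acts on the zebrafish (Danio rerio) brain. It used droplet sequencing (10x Genomics), which puts a barcode on all transcripts caught in one droplet and gives every molecule its own tag, the unique molecular identifier or UMI.

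The 3 libraries were labelled Zn10, Zn15 and Ctrl. Zn10 and Zn15 came from brains of 2 zinc treatments, and Ctrl came from brains of the control. What the 10 and 15 stand for, how and for how long the fish were exposed, and their age, strain, sex and number were not stated in the labels. With 1 library per treatment, no spread between fish was measured, no test was possible, and every ratio compares these libraries and not the treatments. All intervals are 95% intervals for counting error.

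The 3 families divide the work of amino acid transport. Slc7 proteins include sodium-independent carriers of arginine and lysine. A second branch of the family works in a pair with a heavy chain of the slc3 family, mostly one encoded by the slc3a2 genes. Slc38 proteins carry glutamine and other small neutral amino acids, a traffic that neurons and glia depend on for glutamate and GABA. Slc43 proteins include carriers that let large neutral amino acids such as leucine and phenylalanine pass down their gradient without a heavy chain.

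Depth was low in all 3 libraries. Zn10 held 974866 UMIs in 2850 barcodes, Zn15 held 1634806 UMIs in 5154 barcodes, and Ctrl held 1698707 UMIs in 5679 barcodes. The median barcode had 271 UMIs in Zn10, 255 in Zn15 and 240 in Ctrl. Levels are UMIs of a gene per 1000000 UMIs of the library, class or cluster (CPM), and a level is compared only within a gene. All 8 general neuron markers were detected in each library. All 8 oligodendrocyte markers were detected too, with a summed level of 3792 CPM in Zn10, 5113 CPM in Zn15 and 7678 CPM in Ctrl. Lymphocyte markers summed to 5.13, 11.6 and 1.77 CPM in Zn10, Zn15 and Ctrl. Pairs of libraries had 4 to 8 barcode sequences in common. By a median-of-ratios scaling the middle of all genes stood at a log2 ratio of 0.13 for Zn10 over Ctrl, -0.03 for Zn15 over Ctrl and, between the zinc libraries, -0.16 for Zn15 over Zn10, and the ratios below are to be read against that.

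The 5 genes took different places in the 3 libraries. The arginine carrier slc7a3b, the heavy-chain partner slc7a7 and the large neutral amino acid carrier slc43a1a were at their lowest in Zn10 and within 1.5-fold of Ctrl in Zn15. For slc43a1a, Zn15 over Ctrl passed 1.5-fold at 2.004 in barcodes with at least 200 genes and at 1.83 after thinning to 200 UMIs per barcode, and Zn10 over Ctrl moved to 0.574 in barcodes with at least 200 genes. The glutamine carrier slc38a7 was low in both zinc libraries. The exchanger slc7a6 was the 1 member with its highest level in Zn10, its middle level in Zn15 and its lowest in Ctrl.

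slc7a3b (ENSDARG00000061566) is the zebrafish counterpart of a mammalian cationic amino acid transporter that takes up arginine and lysine. It had 70 UMIs in Zn10, 316 in Zn15 and 407 in Ctrl, which is 71.8 CPM (56.0 to 90.7) in Zn10, 193 CPM (173 to 216) in Zn15 and 240 CPM (217 to 264) in Ctrl. The Zn10 interval lay below both others, and those of Zn15 and Ctrl lay end to end without overlapping. The ratio was 0.300 (0.229 to 0.387) for Zn10 over Ctrl and 0.807 (0.694 to 0.937) for Zn15 over Ctrl. Zn15 over Zn10 stood at 2.69 (2.07 to 3.54).

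slc7a6 (ENSDARG00000054423) and slc7a7 (ENSDARG00000055226) encode y+L-type light chains, which in mammals pair with the heavy chain and exchange arginine or lysine for a neutral amino acid with sodium. slc7a6 had 109 UMIs in Zn10, 124 in Zn15 and 62 in Ctrl. Its level was 112 CPM (91.8 to 135) in Zn10, 75.8 CPM (63.1 to 90.4) in Zn15 and 36.5 CPM (28.0 to 46.8) in Ctrl. The 3 intervals did not overlap, and both zinc libraries lay above Ctrl. The ratio was 3.06 (2.22 to 4.25) for Zn10 over Ctrl, 2.08 (1.52 to 2.87) for Zn15 over Ctrl and 0.678 (0.520 to 0.886) for Zn15 over Zn10.

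slc7a7, whose human counterpart is mutated in lysinuric protein intolerance and which zebrafish need for microglia to settle in the brain, was sparse. It had 8 UMIs in 6 barcodes of Zn10, 36 UMIs in 34 barcodes of Zn15 and 40 UMIs in 37 barcodes of Ctrl. This gave 8.21 CPM (3.54 to 16.2) in Zn10, 22.0 CPM (15.4 to 30.5) in Zn15 and 23.5 CPM (16.8 to 32.1) in Ctrl. The Zn10 interval reached the lower end of the Zn15 interval, and Zn15 and Ctrl overlapped almost wholly. The ratio was 0.349 (0.141 to 0.755) for Zn10 over Ctrl, 0.935 (0.579 to 1.505) for Zn15 over Ctrl and 2.68 (1.23 to 6.68) for Zn15 over Zn10.

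slc38a7 (ENSDARG00000012002) is the counterpart of a mammalian glutamine transporter that exports glutamine and asparagine from lysosomes. It had 21 UMIs in Zn10, 49 in Zn15 and 118 in Ctrl, or 21.5 CPM (13.3 to 32.9) in Zn10, 29.97 CPM (22.2 to 39.6) in Zn15 and 69.5 CPM (57.5 to 83.2) in Ctrl. Both zinc libraries lay below Ctrl and overlapped each other. The ratio was 0.310 (0.185 to 0.496) for Zn10 over Ctrl and 0.431 (0.303 to 0.607) for Zn15 over Ctrl. For Zn15 over Zn10 it was 1.39 (0.819 to 2.44).

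slc43a1a (ENSDARG00000037393) is the counterpart of a mammalian facilitator of leucine, isoleucine, valine and phenylalanine transport. It had 7 UMIs in Zn10, 50 in Zn15 and 40 in Ctrl. Its level was 7.18 CPM (2.89 to 14.8) in Zn10, 30.6 CPM (22.7 to 40.3) in Zn15 and 23.5 CPM (16.8 to 32.1) in Ctrl, so that Zn10 lay below both others and Zn15 and Ctrl overlapped. The ratio was 0.305 (0.115 to 0.688) for Zn10 over Ctrl, 1.30 (0.840 to 2.02) for Zn15 over Ctrl and 4.26 (1.92 to 11.1) for Zn15 over Zn10.

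**Figure D1:**
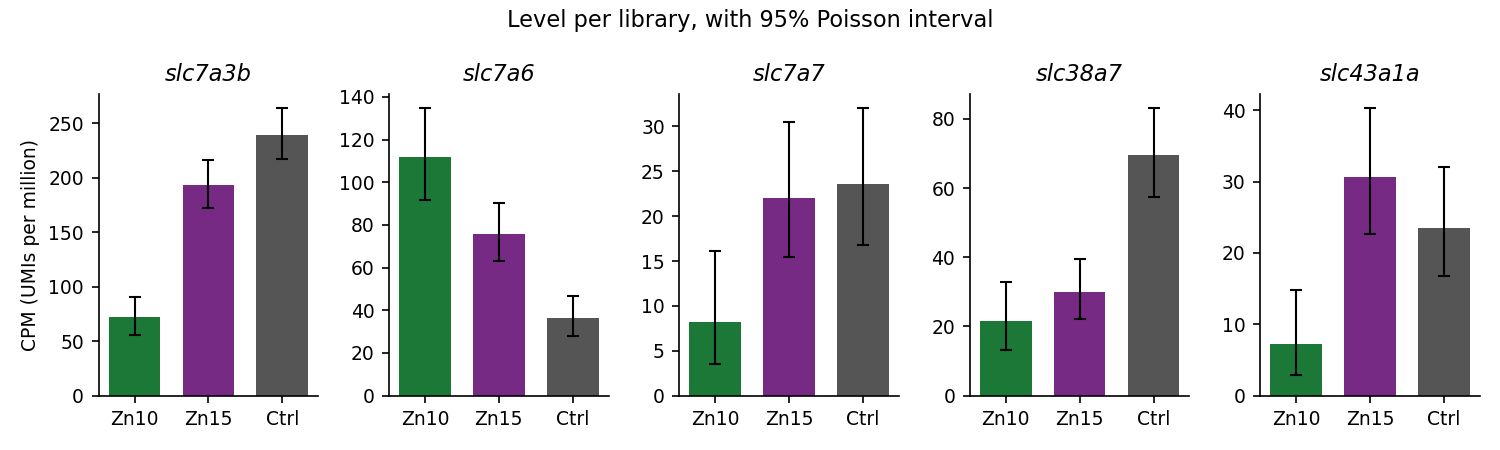
Level of each gene (y axis, UMIs per 1000000 UMIs of the library) in the Zn10, Zn15 and Ctrl libraries, with exact Poisson 95% intervals as error bars; each panel has its own y scale that starts at 0. slc7a6 stands at 112 CPM in Zn10 and 36.5 CPM in Ctrl, while slc7a3b stands at 71.8 CPM in Zn10 and 240 CPM in Ctrl.

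A gene was counted as differing when its ratio was at least 1.5-fold in either direction and it had at least 20 UMIs over the pair of libraries, a minimum that all 5 genes met in each comparison. For Zn10 over Ctrl, 4 of the 5 were lower and 1 was higher, against 10.7% lower and 16.4% higher among all 8067 genes with enough UMIs. For Zn15 over Ctrl, slc38a7 was lower and slc7a6 was higher, against 14.2% lower and 11.4% higher among 8697 genes. For Zn15 over Zn10, slc7a3b, slc7a7 and slc43a1a were higher and none was lower, against 9.11% higher and 18.5% lower among 8002 genes. These contrasts chose the 5 genes, so nothing is read from the counts. Each library stands in 2 of the 3 comparisons, so they share samples.

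**Figure D2:**
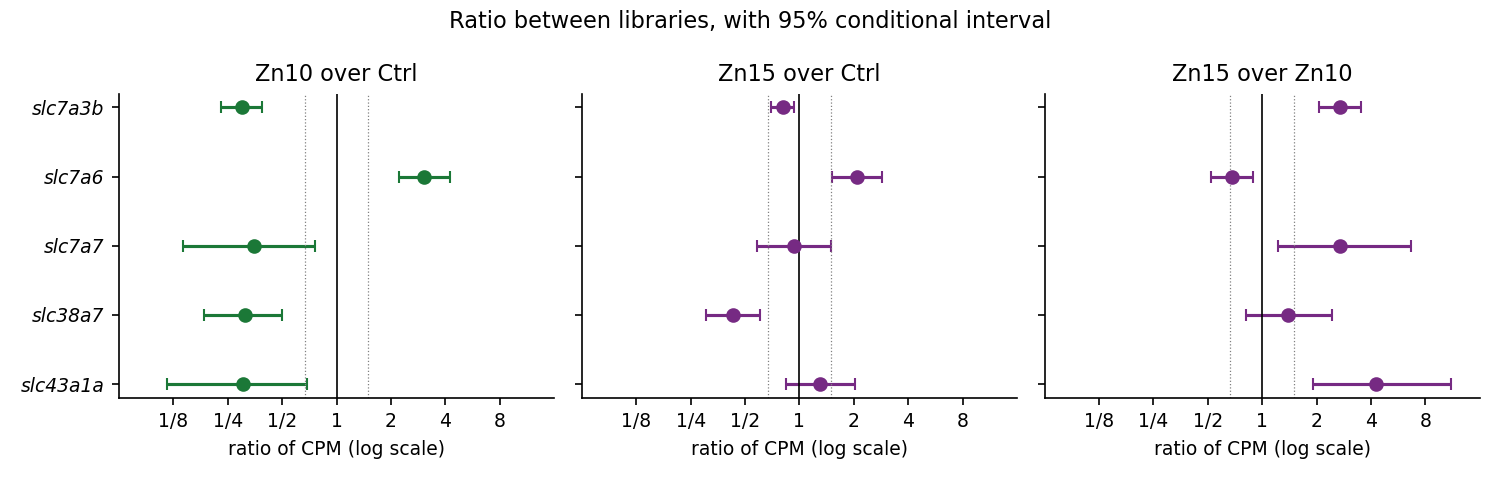
Ratio of CPM between libraries (x axis, log scale) for each gene, with exact conditional 95% intervals; dotted lines mark 1.5-fold and the solid line marks equal levels. In the Zn10 over Ctrl panel slc7a6 lies to the right at 3.06 and the other genes lie to the left between 0.300 and 0.349.

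A level summed over a whole library cannot tell fewer cells of a type from less RNA per cell, so the genes were followed into cell classes in 2 ways. First, a barcode was called positive for a class when it had UMIs of at least 2 different markers of that class and more than of any other class. Barcodes in which no class reached 2 markers were called other neurons if they had at least 2 general neuron markers. The remaining 6216 barcodes, ties between classes among them, stayed unclassed. Second, barcodes with at least 100 genes were clustered without the amino acid carrier genes, which gave 17 clusters, 10 of them named from markers. The other clusters keep a number and their leading genes. Whether whole cells or nuclei were loaded was not settled, and free RNA was not corrected. Transcripts of malat1 took 27.0% of UMIs in Zn10, 32.3% in Zn15 and 29.3% in Ctrl. Mitochondrial transcripts took 0.0913% in Zn10, 0.206% in Zn15 and 0.211% in Ctrl.

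slc7a7 was the most concentrated of the 5 genes. Microglia are the resident macrophages of the brain, and the microglia or macrophage-like cluster held 58 of the 84 slc7a7 UMIs, 69.0% of them, with 9.03% of all UMIs. The level was 149 CPM (113 to 193) there. The next was 101 CPM (48.7 to 187, from 10 UMIs) in cluster 12, an unnamed cluster led by the chemokine gene ccl19a.1 with runx3 and ccr9a. The microglia or macrophage markers cd74a, cd74b, spi1b and laptm5 were at least 2-fold higher in cluster 12 as well. The intervals of these 2 clusters overlapped, and every named cluster apart from the microglia or macrophage-like one was at or below 15.1 CPM. No slc7a7 UMI was found in clusters 3, 5, 9, 11 and 13 to 17.

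A UMI of slc7a7 was present in 51 of 883 barcodes of the microglia or macrophage-like cluster, 5.78% (4.33 to 7.52), and in 2.26% of barcodes thinned to 200 UMIs. In the GABAergic neuron-like cluster it was present in 0 of 730 barcodes, and a count of 0 allows up to 3 such barcodes, 0.411%. This limits barcodes with a UMI at this depth, not cells that express the gene. Median depths were 401 and 364 UMIs in these 2 clusters. The marker-positive classes gave the same order without clustering: 144 CPM (94.7 to 209) in microglia or macrophages, 4.27 CPM (1.16 to 10.9) in other neurons and 2.03 CPM (1 UMI) in oligodendrocytes.

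Within the microglia or macrophage-like cluster, slc7a7 had 4 UMIs in Zn10, 26 in Zn15 and 28 in Ctrl. The level was 73.9 CPM (20.1 to 189) in Zn10, 159 CPM (104 to 233) in Zn15 and 163 CPM (109 to 236) in Ctrl, and all 3 intervals overlapped. The ratio was 0.453 (0.115 to 1.29) for Zn10 over Ctrl and 0.973 (0.548 to 1.72) for Zn15 over Ctrl. In the other clusters together slc7a7 was at 4.66, 6.11 and 7.31 CPM in Zn10, Zn15 and Ctrl, from 4, 8 and 10 UMIs. Inside the cluster a difference between Zn10 and Ctrl was thus not detectable at this depth. The marker-positive microglia or macrophages of Zn10 gave 147 CPM from 5 UMIs, beside 106 CPM from 9 UMIs in Zn15 and 188 CPM from 13 UMIs in Ctrl.

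The share of clustered barcodes in the microglia or macrophage-like cluster was 4.76% (3.95 to 5.68) in Zn10, 8.13% (7.32 to 9.01) in Zn15 and 9.31% (8.49 to 10.2) in Ctrl. Cluster 12, with the next slc7a7 level, was instead smallest in Ctrl. Its share was 3.29% (2.62 to 4.08) in Zn10, 4.25% (3.65 to 4.91) in Zn15 and 1.75% (1.39 to 2.17) in Ctrl. The summed level of the 8 microglia or macrophage markers over the whole library was 1240 CPM in Zn10, 1622 CPM in Zn15 and 1578 CPM in Ctrl, with all 8 detected in each. Marker-positive barcodes made up 2.81%, 3.59% and 2.99% of all barcodes in Zn10, Zn15 and Ctrl. With the barcodes of the microglia or macrophage-like cluster left out, the library ratio of slc7a7 for Zn10 over Ctrl was 0.553 in place of 0.349. Few UMIs remain there: over the other clusters, 4 in Zn10 and 10 in Ctrl gave 0.637 (0.146 to 2.21). With cluster levels weighted to the cluster mix of Ctrl the library ratio was 0.454. Marker-class levels weighted to the class mix of Ctrl gave 0.375. What set the shares of these clusters in each library, and their part in the slc7a7 levels, was not tested.

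slc38a7 also had its highest level in the microglia or macrophage-like cluster, but it was spread over neurons and glia too. The cluster held 62 of 188 UMIs (33.0%) at 159 CPM (122 to 204). Next came 86.3 CPM (39.4 to 164, from 9 UMIs) in cluster 11, cerebellar granule neuron-like, then 55.1 CPM (32.6 to 87.1) in the GABAergic neuron-like cluster and 50.4 CPM (24.2 to 92.7) in cluster 8, also cerebellar granule neuron-like. These 3 overlapped each other, and the top cluster overlapped only cluster 11 and the endothelial-like cluster, which had 3 UMIs. The radial glia-like cluster was at 16.5 CPM (4.50 to 42.3). A UMI was present in 6.57% (5.03 to 8.41) of microglia or macrophage-like barcodes and 0.638% (0.174 to 1.63) of radial glia-like barcodes, with median depths of 401 and 320 UMIs; after thinning to 200 UMIs the shares were 3.92% and 0.369%.

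slc38a7 stood lower in both zinc libraries inside and outside that cluster, although inside it the Zn10 interval overlapped that of Ctrl. Inside it, the level was 129 CPM (52.0 to 267) in Zn10, 79.5 CPM (42.3 to 136) in Zn15 and 245 CPM (177 to 331) in Ctrl. Zn15 lay below Ctrl there, at a ratio of 0.324 (0.160 to 0.616), while Zn10 overlapped Ctrl at 0.528 (0.200 to 1.19). In the other clusters together the level was 15.1 CPM (8.06 to 25.9) in Zn10, 26.0 CPM (18.0 to 36.3) in Zn15 and 49.7 CPM (38.6 to 63.0) in Ctrl. Both zinc libraries lay below Ctrl outside the cluster, at ratios of 0.305 (0.154 to 0.556) for Zn10 and 0.523 (0.336 to 0.800) for Zn15. Among clusters with at least 5 UMIs of the gene over the pair of libraries, slc38a7 was lower in 8 of 9 for Zn10 over Ctrl and in 9 of 10 for Zn15 over Ctrl. The interval lay wholly below 1 in 3 of them for Zn10 and in 1 for Zn15. These clusters split the library counts by which the gene was chosen, so their agreement is a description. In the marker-positive other neurons slc38a7 had 3 UMIs in Zn10, 13 in Zn15 and 28 in Ctrl, or 11.6, 45.3 and 71.6 CPM.

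**Figure D3:**
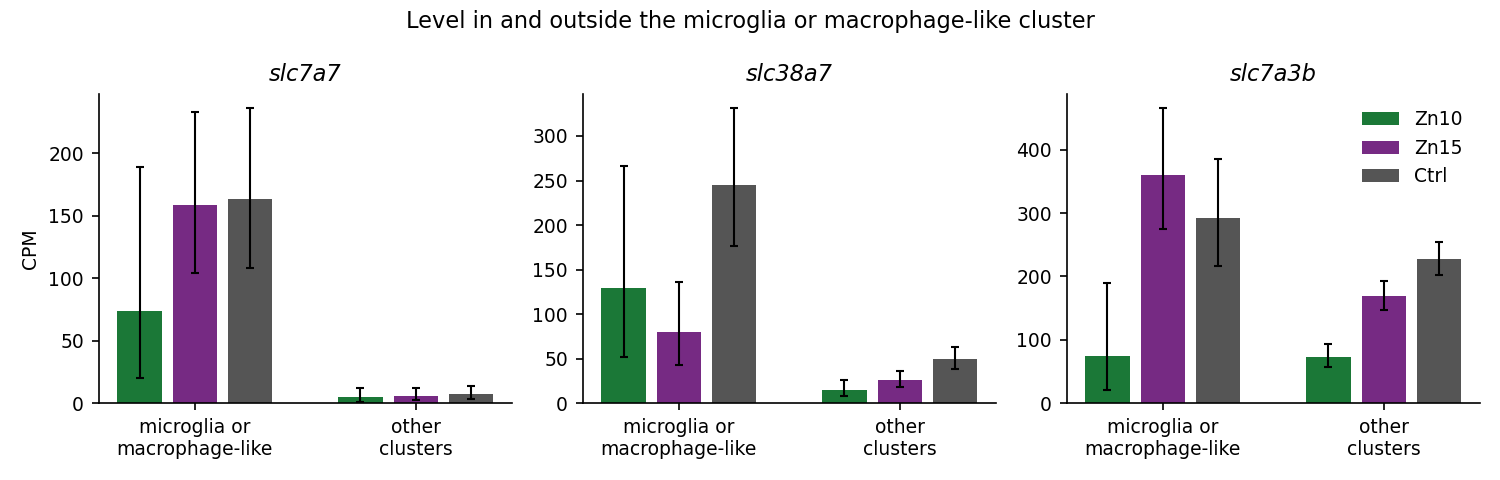
Level (y axis, CPM) of slc7a7, slc38a7 and slc7a3b in the microglia or macrophage-like cluster and in all other clusters together, for the Zn10, Zn15 and Ctrl libraries, with exact Poisson 95% intervals as error bars. slc7a7 is near 0 outside the cluster in every library, at 4.66 to 7.31 CPM, whereas slc7a3b outside the cluster is at 73.4 CPM in Zn10, 169 CPM in Zn15 and 227 CPM in Ctrl.

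slc7a3b was broad, with its lowest levels in the oligodendrocyte-like cluster and in 1 of the granule neuron-like clusters. It was at 315 CPM (214 to 447) in cluster 12, 312 CPM (255 to 379) in the GABAergic neuron-like cluster, 290 CPM (239 to 349) in the microglia or macrophage-like cluster and 274 CPM (224 to 333) in the glutamatergic neuron-like cluster, and these 4 overlapped. The oligodendrocyte precursor-like cluster was at 198 CPM (158 to 243), the dividing cell-like cluster at 191 CPM (144 to 249) and the radial glia-like cluster at 145 CPM (101 to 201). The oligodendrocyte-like cluster was at 35.6 CPM (20.4 to 57.9), and cluster 11, cerebellar granule neuron-like, at 9.59 CPM from 1 UMI. Oligodendrocytes make myelin, and the interval of the precursor-like cluster lay wholly above theirs. A UMI was present in 73 of 730 GABAergic neuron-like barcodes and in 13 of 1260 oligodendrocyte-like barcodes, 1.03% (0.550 to 1.76), with median depths of 364 and 278 UMIs. By markers the order was alike, with microglia or macrophages at 293 CPM (221 to 381), other neurons at 225 CPM (196 to 258), radial glia at 144 CPM (109 to 187) and oligodendrocytes at 38.6 CPM (23.2 to 60.2). After thinning the clusters' barcodes to 200 UMIs, the shares were 5.42% (3.83 to 7.43) and 0.398% (0.109 to 1.02).

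slc7a3b was lower in Zn10 than in Ctrl in most clusters. Clusters and classes split the library counts by which the gene was chosen, so their agreement is a description. Of 14 clusters with at least 5 UMIs over Zn10 and Ctrl, 13 were lower in Zn10, and 7 had an interval wholly below 1. The GABAergic neuron-like cluster had 13 UMIs and 129 CPM in Zn10, 19 UMIs and 250 CPM in Zn15, and 70 UMIs and 466 CPM in Ctrl. The radial glia-like cluster had 0 UMIs in Zn10, 16 UMIs and 142 CPM in Zn15, and 19 UMIs and 240 CPM in Ctrl. In the oligodendrocyte precursor-like cluster the level was 50.9 CPM in Zn10, 192 CPM in Zn15 and 314 CPM in Ctrl, a ratio of 0.162 (0.0567 to 0.378) for Zn10 over Ctrl. By markers, slc7a3b was lower in Zn10 in 7 of 7 classes with at least 5 UMIs over the pair, and other neurons had 116 CPM in Zn10, 206 CPM in Zn15 and 312 CPM in Ctrl. The exception among clusters was cluster 3, an unnamed cluster led by bnc2 and barhl2, with 167 CPM in Zn10, 103 CPM in Zn15 and 82.3 CPM in Ctrl and a ratio of 2.03 (0.720 to 5.91) for Zn10 over Ctrl.

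For Zn15 over Ctrl the slc7a3b ratios of the clusters lay on both sides of 1. Of 13 clusters with at least 5 UMIs over the pair, 8 were higher and 5 lower in Zn15. No interval lay wholly above 1. The intervals wholly below 1 were those of the GABAergic neuron-like cluster at 0.535 (0.304 to 0.899), the oligodendrocyte precursor-like cluster at 0.612 (0.381 to 0.970) and cluster 1, unnamed, at 0.485 (0.270 to 0.842). By markers, 4 of 9 classes were higher and 5 lower. Other neurons and radial glia had intervals wholly below 1, and no class had one wholly above. In the microglia or macrophage-like cluster Zn15 was at 361 CPM (275 to 465) and Ctrl at 292 CPM (216 to 385), a ratio of 1.24 (0.834 to 1.84), and in the other clusters together it was 0.743 (0.622 to 0.886). Whether these 2 ratios differ was not tested.

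slc7a6 had its highest level in oligodendrocytes by markers and in unnamed clusters by clustering. The marker-positive oligodendrocytes were at 136 CPM (105 to 173), above other neurons at 69.5 CPM (53.6 to 88.5) and radial glia at 43.6 CPM (25.4 to 69.8). Among clusters, cluster 13 stood first at 276 CPM (201 to 371), then cluster 12 at 193 CPM (116 to 301), the oligodendrocyte-like cluster at 111 CPM (82.7 to 147) and the GABAergic neuron-like cluster at 97.9 CPM. Cluster 13 was led by c6, prdm8 and c7b, c6 and c7b being complement genes, and was left unnamed because markers of oligodendrocytes (plp1a, fa2h), of their precursors (sox10, nkx2.2a) and of radial glia (fabp7a, s100b) were all at least 2-fold higher in it. It held 14.9% of slc7a6 UMIs and 3.70% of all UMIs. A UMI was present in 10.4% (7.39 to 14.2) of its 335 barcodes and in 0.330% (0.0682 to 0.962) of the 908 dividing cell-like barcodes, where the level was lowest of the named clusters at 10.4 CPM; median depths were 396 and 283 UMIs. After thinning the shares were 3.83% and 0.280%.

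By cluster, slc7a6 was higher in Zn10 than in Ctrl, and the place of Zn15 varied. All 8 clusters with at least 5 UMIs over Zn10 and Ctrl were higher in Zn10. Of these, 4 had an interval wholly above 1, and the intervals of the rest held 1. The clusters split the library counts by which the gene was chosen, so their agreement is a description. Zn15 was higher than Ctrl in 8 of 10 clusters and lower in 2, and for Zn15 over Zn10 4 of 11 were higher and 7 lower. In the oligodendrocyte-like cluster it was at 181 CPM in Zn10, 151 CPM in Zn15 and 59.7 CPM in Ctrl, with ratios over Ctrl of 3.04 (1.30 to 7.11) for Zn10 and 2.52 (1.23 to 5.39) for Zn15. In the glutamatergic neuron-like cluster it was at 189 CPM in Zn10 (21 UMIs), 33.5 CPM in Zn15 (3 UMIs) and 28.0 CPM in Ctrl (5 UMIs), so that Zn15 was near Ctrl there, at a Zn15 over Zn10 ratio of 0.177 (0.0339 to 0.594). The oligodendrocyte precursor-like cluster had 119 CPM in Zn10, 64.1 CPM in Zn15 and 19.2 CPM in Ctrl. In cluster 13, where the gene was highest, the level was 279 CPM in Zn10, 316 CPM in Zn15 and 211 CPM in Ctrl, and the ratios over Ctrl were 1.32 (0.495 to 3.55) for Zn10 and 1.498 (0.691 to 3.51) for Zn15. The microglia or macrophage-like cluster had 3, 2 and 9 UMIs in Zn10, Zn15 and Ctrl, too few to order. Of the 11 clusters counted for Zn15 over Zn10, cluster 12 and the glutamatergic neuron-like cluster had an interval wholly below 1. No interval lay wholly above 1. Of the marker-positive classes with at least 5 UMIs, other neurons and microglia or macrophages had one wholly below 1, and none wholly above. The oligodendrocyte-like cluster took 9.19% of clustered barcodes in Zn10, 10.2% in Zn15 and 13.3% in Ctrl. Weighted to the cluster mix of Ctrl, the library ratios of slc7a6 over Ctrl were 3.05 for Zn10 and 2.01 for Zn15. Weighted to the class mix of Ctrl they were 3.26 and 2.21, beside 3.06 and 2.08 unweighted. The part of the oligodendrocyte-like cluster in the slc7a6 levels was not tested.

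**Figure D4:**
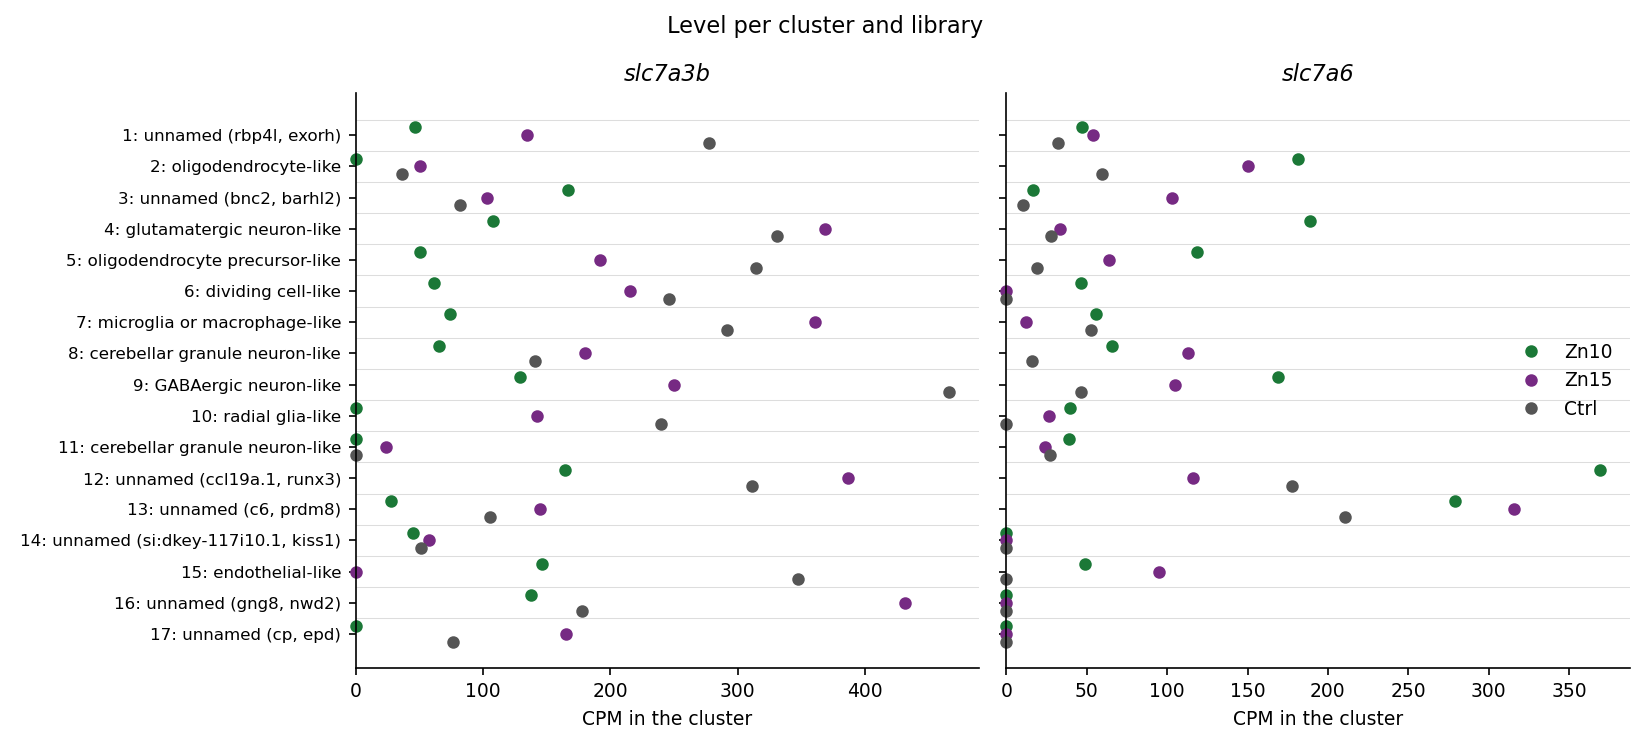
Level (x axis, CPM) of slc7a3b and slc7a6 in each of the 17 clusters (y axis, number and name or leading genes), 1 point for each of the Zn10, Zn15 and Ctrl libraries. For slc7a3b the Zn10 point lies left of the Ctrl point in most clusters, as at 129 CPM against 466 CPM in the GABAergic neuron-like cluster, and for slc7a6 it lies right of it in most, as at 189 CPM against 28.0 CPM in the glutamatergic neuron-like cluster.

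slc43a1a had its largest count in the dividing cell-like cluster, but not so by marker-positive class. The cluster held 20 of its 97 UMIs, 20.6%, with 6.68% of all UMIs, at 69.5 CPM (42.5 to 107). Cluster 12 was at 81.2 CPM (35.1 to 160, from 8 UMIs) and cluster 8, cerebellar granule neuron-like, at 50.4 CPM (24.2 to 92.7), and all 3 overlapped. The microglia or macrophage-like cluster at 7.71 CPM (1.59 to 22.5) and the GABAergic neuron-like cluster at 3.06 CPM (1 UMI) lay below the dividing cell-like cluster. A UMI was present in 2.203% (1.35 to 3.38) of dividing cell-like barcodes and 0.340% (0.0701 to 0.990) of microglia or macrophage-like barcodes, although the second had more UMIs per barcode (medians of 283 and 401). By markers, cerebellar granule neurons at 52.6 CPM (7 UMIs), newborn neurons or progenitors at 47.9 CPM (12 UMIs) and dividing cells at 46.2 CPM (3 UMIs) came first, and other neurons were at 10.7 CPM (5.12 to 19.7). In the dividing cell-like cluster it had 1 UMI in Zn10, 13 in Zn15 and 6 in Ctrl, or 15.5, 104 and 61.5 CPM. Of 6 clusters with at least 5 UMIs over Zn10 and Ctrl, 5 were lower in Zn10, and no interval lay wholly on 1 side of 1. These clusters too are parts of the library counts by which the gene was chosen.

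**Figure D5:**
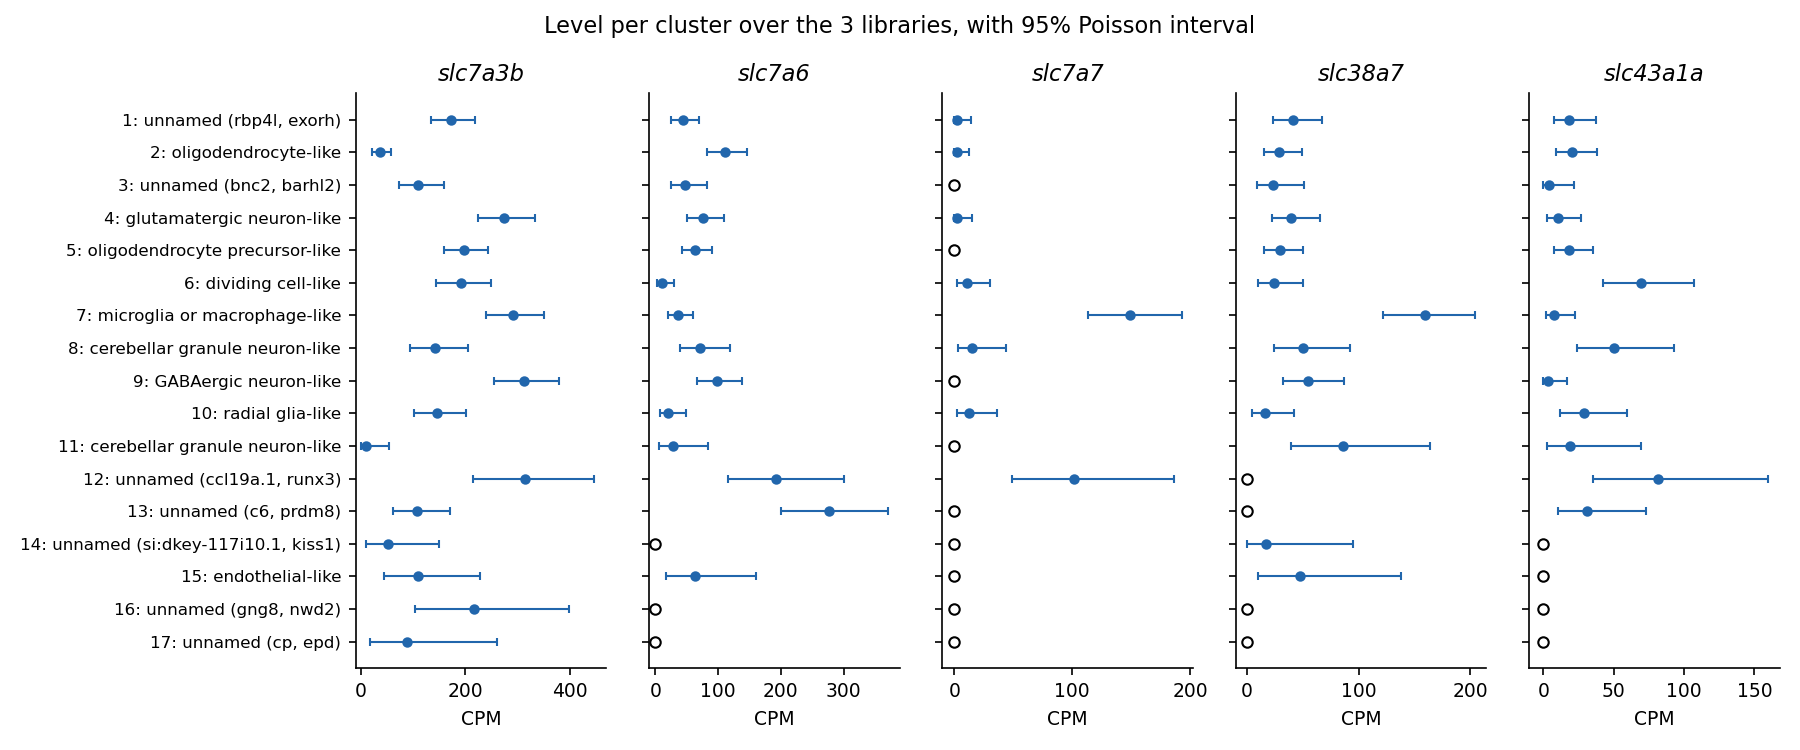
Level (x axis, CPM over the 3 libraries) of each gene in the 17 clusters, with exact Poisson 95% intervals; open circles mark clusters with 0 UMIs and each panel has its own x scale. slc7a7 stands at 149 CPM in the microglia or macrophage-like cluster and 101 CPM in cluster 12, slc7a6 peaks at 276 CPM in cluster 13, and slc7a3b is spread over most clusters.

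The heavy chains that slc7a6 and slc7a7 pair with in mammals were unlike each other in place. slc3a2a was highest in the microglia or macrophage-like cluster, at 198 CPM (156 to 247), as was slc7a7, and it had 0 UMIs in cluster 13. slc3a2b was highest in cluster 8, cerebellar granule neuron-like, at 146 CPM and was at 33.4 CPM in the microglia or macrophage-like cluster. Over whole libraries slc3a2a was at 22.6 CPM in Zn10, 26.9 CPM in Zn15 and 34.7 CPM in Ctrl, with a ratio of 0.650 (0.379 to 1.08) for Zn10 over Ctrl. slc3a2b was at 66.7 CPM in Zn10, 78.3 CPM in Zn15 and 54.7 CPM in Ctrl, with a ratio of 1.43 (1.09 to 1.89) for Zn15 over Ctrl. Within the microglia or macrophage-like cluster slc3a2a was at 166 CPM in Zn10, 141 CPM in Zn15 and 262 CPM in Ctrl, a Zn15 over Ctrl ratio of 0.536 (0.309 to 0.904). Among the 77 barcodes with slc7a7, 5 had a UMI of slc3a2a and 2 of slc3a2b. Among the 271 with slc7a6, 1 had a UMI of slc3a2a and 6 of slc3a2b. The share that a common cluster alone would give was not computed, so no pairing is read from these counts.

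The paralog slc7a3a did not share the low Zn10 level of slc7a3b. It stood at 276 CPM in Zn10, 274 CPM in Zn15 and 260 CPM in Ctrl, with ratios over Ctrl of 1.06 (0.910 to 1.24) for Zn10 and 1.06 (0.923 to 1.21) for Zn15. For Zn10 over Ctrl this interval lay above that of slc7a3b, at 0.300 (0.229 to 0.387). For Zn15 over Ctrl it overlapped that of slc7a3b, at 0.807 (0.694 to 0.937). slc7a3a was highest in the endothelial-like cluster at 771 CPM (570 to 1019) and in cluster 8, cerebellar granule neuron-like, at 736 CPM (621 to 866). The split of reads between such copies depends on the authors' counting, and its settings were not stated in the labels.

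Of all 35 genes of the 3 families, 6 had no UMI in any library. For Zn10 over Ctrl, 19 genes had enough UMIs. Of these, 4 were higher and 5 lower by at least 1.5-fold, beside 27.2% of all genes in either direction. These counts include the 5 members, which the contrasts between libraries chose, so nothing is read from them. The median log2 ratio was 0.10 for the 19 genes and 0.16 without the 5 members, against 0.09 over all genes with enough UMIs. Without the 5 members, 3 of 14 were higher (slc7a8a, slc38a5a and slc7a2) and 1 was lower (slc43a3b), beside 16.4% higher and 10.7% lower of all genes. For Zn15 over Ctrl, 4 of 15 were higher without the members and none was lower, beside 11.4% higher and 14.2% lower of all genes. The 4 were slc38a5a, slc7a2, slc7a11 and slc38a6. The median log2 was 0.18 without the members and 0.13 with them, against -0.06 over all genes. For Zn15 over Zn10, slc43a3b and slc38a6 were higher and none of 14 was lower, beside 9.11% higher and 18.5% lower of all genes.

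Among the other family genes with at least 50 UMIs, the glutamine carrier slc38a2 was at 546 CPM in Zn10, 465 CPM in Zn15 and 543 CPM in Ctrl, and slc38a3a, a glial glutamine carrier in mammals, at 182, 188 and 152 CPM in Zn10, Zn15 and Ctrl. The neutral amino acid exchanger slc7a8a was at 140 CPM in Zn10, 96.6 CPM in Zn15 and 85.4 CPM in Ctrl, a Zn10 over Ctrl ratio of 1.63 (1.28 to 2.08). The ratios over Ctrl of slc38a10, slc38a3b, slc7a14a, slc7a10a and slc38a4 lay between 0.798 and 1.36 in both zinc libraries, and all of their intervals held 1.

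Other family genes shared the microglia or macrophage-like cluster with slc7a7 and slc38a7. slc7a11, the cystine and glutamate exchanger that feeds glutathione synthesis, stood at 992 CPM (896 to 1096) in it and held 78.9% of its UMIs there. Inside that cluster slc7a11 was at 1497 CPM in Zn10, 1143 CPM in Zn15 and 688 CPM in Ctrl. Its ratios over Ctrl there were 2.18 (1.62 to 2.91) for Zn10 and 1.66 (1.31 to 2.11) for Zn15. Over whole libraries they were 1.15 (0.884 to 1.48) and 1.56 (1.26 to 1.92). The 102 UMIs of slc7a11 in Zn10 lay in 38 barcodes, the 232 in Zn15 in 91 and the 155 in Ctrl in 79. Its intervals take each UMI as independent and leave out spread between barcodes. By markers, only newborn neurons or progenitors had a Zn10 over Ctrl interval wholly above 1, and radial glia had one wholly below. For Zn15 over Ctrl, only microglia or macrophages had an interval wholly above 1. These classes had at least 5 UMIs over the pair. In the microglia or macrophage-like cluster the slc38a7 ratios over Ctrl were 0.528 (0.200 to 1.19) for Zn10 and 0.324 (0.160 to 0.616) for Zn15. Of these 2, the Zn10 interval held 1. slc43a3b was at 396 CPM in the cluster and slc38a5a at 121 CPM, and both were higher still in cluster 12, at 568 and 152 CPM.

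Carriers outside the 3 families, from a list of 23, lay on both sides of Ctrl. For Zn10 over Ctrl, 2 of 11 with enough UMIs were higher and 1 lower, beside 16.4% and 10.7% of all genes, with a median log2 of 0.36. In that comparison the share past 1.5-fold was near that of all genes. For Zn15 over Ctrl, 4 of 12 were higher and 1 lower, beside 11.4% and 14.2% of all genes. For Zn15 over Zn10, 1 of 11 was higher and 3 were lower, beside 9.11% and 18.5% of all genes. slc36a1, whose mammalian counterpart is a proton-coupled amino acid carrier of lysosomes, was at 157 CPM in Zn10, 100 CPM in Zn15 and 45.3 CPM in Ctrl, with ratios over Ctrl of 3.46 (2.62 to 4.61) for Zn10 and 2.21 (1.68 to 2.94) for Zn15. slc36a1 had the library order of slc7a6. It was higher in Zn10 than in Ctrl in 12 of 12 clusters with at least 5 UMIs, which split the same library counts. slc1a2b, a glial glutamate carrier, stood at 277 CPM in Zn10, 264 CPM in Zn15 and 168 CPM in Ctrl. slc36a4 was lower, at 0.653 (0.335 to 1.21) for Zn10 and 0.442 (0.235 to 0.797) for Zn15, both over Ctrl.

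Genes of the cell's answer to amino acid shortage lay on both sides of Ctrl too. Of 19 genes with enough UMIs for Zn10 over Ctrl, 2 were higher (trib3 and phgdh) and 3 lower (ddit4, gpt2l and eif4ebp1), beside 16.4% and 10.7% of all genes, with a median log2 of 0.01. trib3, a target of the transcription factor Atf4, was at 456 CPM in Zn10, 358 CPM in Zn15 and 254 CPM in Ctrl, with ratios over Ctrl of 1.80 (1.57 to 2.06) for Zn10 and 1.41 (1.24 to 1.60) for Zn15. phgdh, the first enzyme of serine synthesis, was at 2.23 (1.28 to 3.93) for Zn10 over Ctrl. In the same comparison gpt2l was at 0.518 (0.332 to 0.785) and ddit4 at 0.611 (0.401 to 0.911). In Zn15 over Ctrl, 1 of 19 was higher and 4 were lower, beside 11.4% and 14.2% of all genes, with a median of -0.28. The higher gene was phgdh, and the lower ones were ddit3, vldlr, ddit4 and gpt2l, with gpt2l at 0.556 (0.392 to 0.781).

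Of 8 glutamine and glutamate enzyme genes, none passed 1.5-fold for Zn10 over Ctrl, beside 27.2% of all genes, with a median log2 of -0.12. glsa did so for Zn15 over Ctrl, at 1.70 (1.01 to 2.92), beside 25.6% of all genes. The glutamine synthetase gene glula was at 0.829 (0.791 to 0.869) for Zn10 and 1.19 (1.15 to 1.23) for Zn15, both over Ctrl. Of the lysosomal amino acid sensing genes, 1 of 15 was higher and 2 were lower for Zn10 over Ctrl, beside 16.4% and 10.7% of all genes. For Zn15 over Ctrl none of 14 was higher and 4 were lower, beside 11.4% and 14.2% of all genes. lamtor4, a subunit of the complex that anchors mTORC1 signalling to lysosomes, was the lowest of those with at least 50 UMIs, at 0.550 (0.352 to 0.837) for Zn10 and 0.427 (0.286 to 0.625) for Zn15, both over Ctrl.

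Arginine, the substrate of the mammalian counterpart of slc7a3b, feeds polyamine synthesis. In the list of arginine and polyamine genes, for Zn10 over Ctrl, 2 of 15 were higher and none was lower, beside 16.4% and 10.7% of all genes, with a median log2 of 0.23. The spermine synthase gene sms was at 1.79 (1.29 to 2.48). azin1a had 32 UMIs in Zn10, 35 in Zn15 and 5 in Ctrl. For Zn15 over Ctrl, 3 of 15 were higher and 3 lower, beside 11.4% and 14.2% of all genes, among them the arginase gene arg2 at 0.597 (0.516 to 0.689) and oaz2b, of the antizymes that limit polyamine synthesis, at 0.280 (0.164 to 0.458).

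Likeness between genes was measured as Pearson's r of log2(CPM + 50) over 26 pairs of marker-positive class and library, among 2707 genes with at least 200 UMIs. The points of 1 library share its depth. The differences between libraries, known when the members were chosen, also enter r, so r is a description. slc7a3b was most like sirt1 (0.77), prps1a (0.62), n4bp1, edrf1 and vash2. slc7a6 was most like rabac1 (0.79), atp5mc3a (0.63), wbp2nl, elmo1 and nr1d2a. slc38a7 was most like hspa8 (0.70), nfe2l2a, mef2cb, mhc1uba and mhc1zba. Over 49 pairs of cluster and library, a measure added after the data were seen, slc7a7 was most like BX901920.1 (0.91) and tnfb (0.90), a tumour necrosis factor gene. Between the members themselves the largest values over classes were 0.55 for slc7a7 with slc38a7 and -0.44 for slc7a3b with slc7a6, and over clusters the same pairs gave 0.24 and -0.13.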

How the data were processed

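For each of the 3 libraries the authors deposited raw UMI counts, a matrix of genes by barcodes in whole numbers. Cell Ranger 4.0.0 made the matrices, per the file headers; fastp, Seurat and GRCz11 stand in the submitters' processing notes. How cells were called, which annotation was used and whether intronic reads counted are not stated there. The 5 genes and all lists were chosen with earlier results of these data known.

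Counts were summed per library, marker-positive class or cluster and divided by the UMI total (CPM), with exact Poisson intervals. Ratios carry exact conditional binomial intervals and shares exact Clopper-Pearson intervals, at 95% and for counting error only. A count of 0 in a library allows up to a floor of 3 counts, which is 3.08 CPM in Zn10, 1.84 CPM in Zn15 and 1.77 CPM in Ctrl. Doublets were neither called nor removed. No gene was tested across samples.

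Barcodes over a minimum of 100 genes, with no more than 30% mitochondrial UMIs (2459 in Zn10, 4119 in Zn15, 4629 in Ctrl) were scaled to 300 UMIs, reduced to 2000 variable genes and 30 principal components, and partitioned by the Leiden method (15 neighbours, resolution 1.0) without integration. The clustering did not use malat1 or mitochondrial, ribosomal, haemoglobin and carrier genes. A cluster was named when at least 3 markers of a class were 2-fold higher in it and more than of any other class. Clusters 12, 14 and 16 were left unnamed by hand because of their leading genes, after the data were seen. Thinning drew 200 UMIs per barcode.

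Named besides the 5 genes are family genes with at least 50 UMIs, for each other list up to 2 highest and 2 lowest ratios among genes with at least 50 UMIs over the pair of libraries, and the 5 genes most like a member with at least 100 UMIs. Genes given to spell out a count, azin1a and the likeness of slc7a7 were chosen after their values were seen. The interval code was tested on simulated data. Python 3.11.15, SciPy 1.17.1, scanpy 1.11.5 and leidenalg 0.10.2 were used.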

Additional observations from a re-analysis of the deposited data

How the results depend on the processing

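No paired analysis was possible because each treatment had 1 library. The 15 ratios of the 5 genes were recomputed under 8 alternatives each: total without malat1, median-of-ratios factors, barcodes with at least 200 genes, thinning to 200 UMIs, without the richest barcode, the class mix of Ctrl, and, added after seeing the data, the cluster mix of Ctrl and without the microglia or macrophage-like cluster. All 120 values lay inside the interval of the ratio as reported. The widest ranges, as a ratio of their ends, were 0.202 to 0.574 for slc43a1a Zn10 over Ctrl, 1.56 to 3.38 for slc7a7 Zn15 over Zn10, 0.856 to 1.84 for slc38a7 Zn15 over Zn10 and 0.283 to 0.553 for slc7a7 Zn10 over Ctrl. slc38a7 Zn15 over Zn10 and slc7a7 Zn15 over Ctrl (0.837 to 1.29) changed side of 1. slc43a1a Zn15 over Ctrl passed 1.5-fold at 2.004 with the 200-gene minimum and at 1.83 after thinning, slc7a6 Zn15 over Zn10 did at 0.648 with that minimum and 0.660 with the cluster mix, and slc38a7 Zn15 over Zn10 did at 1.56 with median-of-ratios factors, 1.84 after thinning and 1.61 without the microglia or macrophage-like cluster. The causes were not tested.

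The number of family genes past 1.5-fold changed with the number tested: for Zn10 over Ctrl 9 of 19, 5 of 9 with at least 100 UMIs and 14 of 27 with at least 3; for Zn15 over Ctrl 6 of 20, 3 of 10 and 10 of 27. For Zn15 over Zn10 it was 5 of 19, 2 of 9 and 10 of 27, and 8 of 19 with median-of-ratios factors. These counts include members, which these contrasts chose. Without the members, 3 of 14 were higher and 1 was lower for Zn10 over Ctrl with at least 20 UMIs. At that minimum 27.2% of all genes passed for Zn10 over Ctrl, 25.6% for Zn15 over Ctrl and 27.6% for Zn15 over Zn10. Shares over all genes were not computed at the other minima. The highest level of slc7a6 was 136 CPM by marker class and 276 CPM by cluster. That of slc43a1a was 52.6 CPM with 2 markers and 115 CPM, from 4 UMIs, with 3, both in cerebellar granule neurons. With 1 marker the highest class for slc43a1a was dividing cells, from 5 UMIs. Dividing cells also came first for it in barcodes with at least 200 genes, from 2 UMIs. In those barcodes the highest class for slc7a3b was glutamatergic neurons, from 8 UMIs, in place of microglia or macrophages.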
